A study of Mus musculus with 8 samples.

Results

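The 10 genes described here, Vdr, Epas1, Slc7a10, Il1r2, Nav2, Gna14, Plekhg3, Map2, Sostdc1 and Plcb4, were taken by symbol from the 32285 genes of the count tables. They were selected on their counts in CD4 T cells of total splenocytes, where they were higher in cKO than in control mice, so that difference is given below as a description without a test. The questions were which CD4 T cells and which other spleen cells carried these genes, whether they were found in the cells that held Il4, and whether the YFP+ libraries, which the choice did not use, showed the same direction.

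Single-cell 3′ RNA libraries were made from 2-month-old mice. The tissue label and the design name spleen, while the extraction protocol names spleen and lymph nodes, so cells of lymph nodes in these libraries cannot be told apart. The cKO mice were Eif3e fl/fl Cγ1Cre Rosa26-YFP LSL, and the control mice were littermates with Cγ1Cre and Rosa26-YFP LSL but without the floxed gene, so all groups carried Cre and the reporter. Live cells were sorted either as total splenocytes or as YFP+ cells, which gave 4 groups of 2 libraries, 1 library per group in each of 2 batches. Per the design text, spleens of 2 to 3 mice of a genotype were pooled for each batch and the total and YFP+ cells were then sorted. P-values of cKO against control thus measure the spread between pools. Cγ1Cre is switched on by transcription of the Igγ1 constant region and acts in activated B cells, so CD4 T cells were not the intended target of the deletion. Eif3e itself was at 303 and 382 CPM (UMIs per 1000000 UMIs of the sum, after scaling) in control and 256 and 298 CPM in cKO CD4 T cells (log2 fold change -0.31, edgeR adjusted p = 0.75, with the batch as a block 0.0214). In B-lineage cells of the YFP+ libraries it was at 226 and 316 CPM in control and 227 and 305 CPM in cKO mice (log2 fold change -0.03, adjusted p = 0.985). These 3′ reads need not come from the deleted exons and so do not check the deletion.

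After the cell filter, 83704 cells remained, with a median of 5250 to 6811 unique molecular identifiers (UMIs, counted RNA molecules) per cell across the 8 libraries. Cells were clustered, and the clusters were named from marker genes. Total libraries held 1342 and 1302 CD4 T cells in control and 1421 and 1942 in cKO mice. A Cd4 UMI was found in 75.1% of control and 79.2% of cKO cells of this class, Cd3e in 88.5% and 90.0%, and Cd8a in 3.33% and 3.00%. The B cell gene Cd79a was found in 17.5% and 15.3% of them. The summed level of 8 B-lineage markers was 113 and 151 CPM in control and 107 and 121 CPM in cKO CD4 T cells. Any 2 libraries shared 51 to 102 cell barcodes, at most 0.974% of the smaller library.

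Follicular helper T cells (Tfh) sit next to B cells in lymphoid follicles, and IL-4 is one of the cytokines by which they act on B cells. Regulatory T cells (Treg), marked by Foxp3, restrain other lymphocytes. The 10 genes come from different pathways, and their identifiers and GRCm38.p6 positions are given once here. Vdr (ENSMUSG00000022479, chr15:97854427-97908296) encodes the nuclear receptor for vitamin D. Epas1 (ENSMUSG00000024140, chr17:86753864-86833410) encodes the oxygen-sensitive transcription factor HIF-2α. Il1r2 (ENSMUSG00000026073, chr1:40084692-40125230) encodes a decoy receptor that binds IL-1 without signalling, and Sostdc1 (ENSMUSG00000036169, chr12:36314169-36318452) a secreted antagonist of BMP and WNT ligands. Slc7a10 (ENSMUSG00000030495, chr7:35186095-35201116) encodes an amino acid transporter. Gna14 (ENSMUSG00000024697, chr19:16435667-16610818) encodes a G protein α subunit of the Gq class, and Plcb4 (ENSMUSG00000039943, chr2:135658603-136014602) a phospholipase C that Gq proteins activate. Plekhg3 (ENSMUSG00000052609, chr12:76533303-76580489) encodes a guanine nucleotide exchange factor. Nav2 (ENSMUSG00000052512, chr7:48959063-49610090) and Map2 (ENSMUSG00000015222, chr1:66175202-66442583) encode cytoskeletal proteins best known from neurons.

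The sequence before the start site could be read for 7 of the 10 genes, at 9 start sites, from RefSeq on GRCm38.p6. Epas1, Plekhg3 and Sostdc1 were not matched. Windows of 250 bases before and 50 after each start were searched on both strands for 4 short motifs: the hypoxia response core ACGTG, the STAT6 motif (TTC and GAA with any 4 bases between them), the GATA motif AGATAA and the vitamin D receptor half-site GGTTCA. They occurred in 19.6%, 6.95%, 11.2% and 10.4% of 32851 windows over all genes. Among the 9 windows of these genes, the STAT6 motif was found in 1, that of Vdr, and the hypoxia response core in 1, that of Il1r2, while the GATA motif and the half-site were found in 0. The 250 bases before the start are shown for these 2 genes, on chr15:97908297-97908546 (minus strand) and chr1:40085843-40086092 (plus strand), 5′ to 3′, with matches in capitals. In Il1r2 there are 6 matches over both strands, of which 2 pairs overlap because CACGTG reads the same on either strand. The Il1r2 window precedes a start site inside the gene span given above, so these matches do not lie before the start of that span. A match is a run of letters and says nothing on binding.
Vdr: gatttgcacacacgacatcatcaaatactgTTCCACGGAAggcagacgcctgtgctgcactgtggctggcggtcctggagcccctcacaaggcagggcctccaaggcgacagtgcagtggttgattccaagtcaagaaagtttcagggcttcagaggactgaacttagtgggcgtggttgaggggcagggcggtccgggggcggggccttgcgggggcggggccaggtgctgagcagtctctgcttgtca
Il1r2: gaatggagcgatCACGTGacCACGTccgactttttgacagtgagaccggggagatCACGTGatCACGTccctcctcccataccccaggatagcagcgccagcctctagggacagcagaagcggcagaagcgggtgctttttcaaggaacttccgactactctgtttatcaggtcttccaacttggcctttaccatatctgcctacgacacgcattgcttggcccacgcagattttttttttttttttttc

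All 10 genes were higher in both cKO than in both control libraries in CD4 T cells of total spleen, with log2 fold changes of 2.80 to 6.22. This is the contrast that chose them, 3.13% of the 12144 genes tested had a log2 fold change of at least 2, and 29.7% had both cKO libraries above both control libraries. By rank of fold change among those genes, Vdr was 5th, Slc7a10 11th, Il1r2 14th, Gna14 16th, Sostdc1 21st, Plekhg3 44th, Nav2 49th, Map2 70th, Epas1 146th and Plcb4 162nd. Il4, the gene used below for co-detection, was 2nd. The median log2 fold change of the 10 genes was 4.38, against -0.02 over all genes. In pooled cells, more cells with RNA of a gene and more RNA per cell cannot be told apart from these levels, so shares of cells are given after them.

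Among the receptors and the secreted antagonist, Vdr was at 0.638 and 0.836 CPM in control and at 43.6 and 92.9 CPM in cKO CD4 T cells (log2 fold change 6.22 ± 0.508, SE). Il1r2 was at 0.744 and 3.76 CPM in control and at 48.4 and 95.5 CPM in cKO cells (4.96 ± 0.64). Sostdc1 was at 19.3 and 13.9 CPM in control and at 266 and 612 CPM in cKO cells (4.70 ± 0.494). For each of these genes the cKO library of batch 2 was above that of batch 1 and both were far above the control libraries. Il4 had the same order, with 0.638 and 0.836 CPM in control and 124 and 324 CPM in cKO cells.

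Epas1, the HIF-2α gene, was at 12.2 and 5.29 CPM in control and at 72.1 and 66.0 CPM in cKO cells (2.93 ± 0.379). Slc7a10, the transporter, had 0 UMIs in the control library of batch 1, stood at 2.23 CPM in that of batch 2, and reached 22.7 and 57.7 CPM in cKO cells (5.08 ± 0.886). Its log2 fold change ranged from 4.10 to 7.84 when 1 library was left out, the widest range among the 10 genes. That of Il1r2 ranged from 4.22 to 6.29, that of Sostdc1 from 3.97 to 5.18, that of Vdr from 5.52 to 6.66 and that of Epas1 from 2.47 to 3.68. With CD4 T cells taken by a gate on Cd4 in place of clusters, it was 3.25 for Il1r2, 5.44 for Vdr, 4.33 for Slc7a10 and 2.90 for Map2.

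The signalling genes had close replicates. Gna14 was at 0.744 and 0.557 CPM in control and at 24.4 and 27.6 CPM in cKO cells (4.94 ± 0.291), and Plcb4 at 23.2 and 18.7 CPM against 142 and 153 CPM (2.80 ± 0.253). Plekhg3 was at 1.17 and 1.25 CPM in control and at 21.5 and 24.6 CPM in cKO cells (4.05 ± 0.269). Of the cytoskeletal genes, Nav2 was at 40.7 and 36.8 CPM against 630 and 558 CPM (3.93 ± 0.289), and Map2 at 2.34 and 2.37 CPM against 27.4 and 35.7 CPM (3.64 ± 0.266). In these 5 genes the replicates of a genotype lay far closer to each other than to those of the other genotype.

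**Figure D1:**
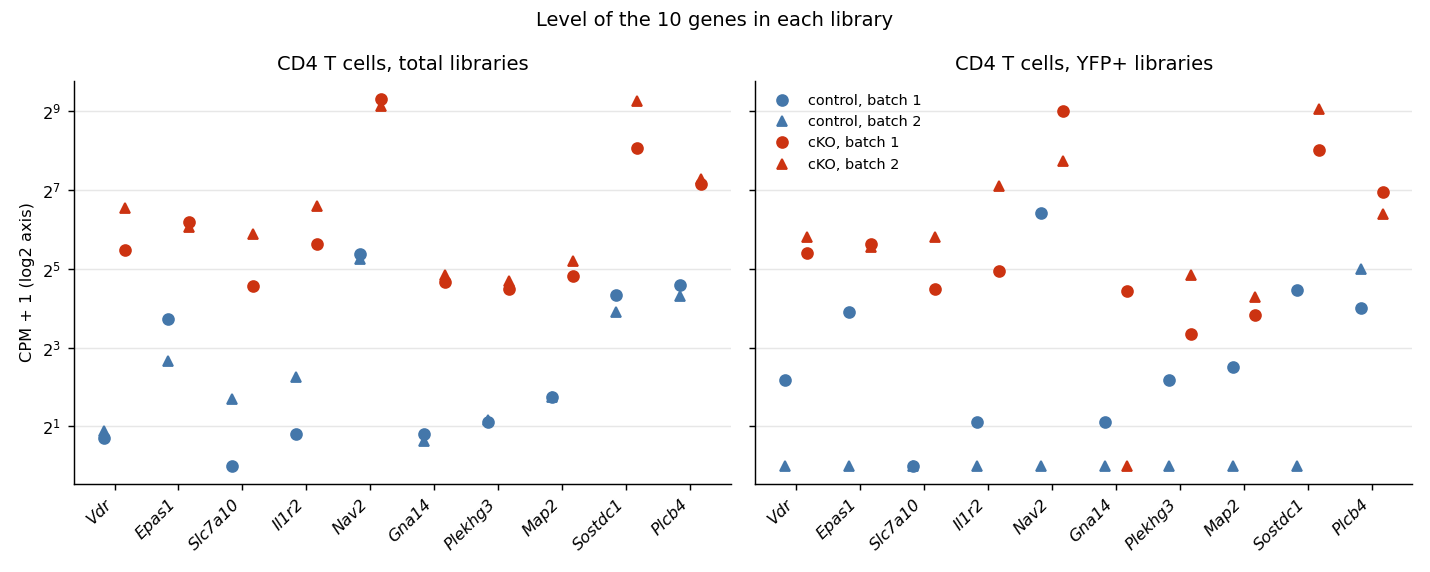
Level of each gene in CD4 T cells of the total (left) and YFP+ (right) libraries, as CPM + 1 on a log2 axis; blue points are control and red points cKO libraries, circles batch 1 and triangles batch 2. All red points of the left panel lie above the blue points of the same gene, and in the right panel the control library of batch 2, with 29 cells, is at 0 CPM for 9 of the 10 genes.

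The genes were also found in a larger share of cells. Vdr was detected in 0.227% of control CD4 T cells (6 of 2644, exact 95% interval 0.0833 to 0.493%) and in 19.6% of cKO cells (659 of 3363, 18.3 to 21.0%). The share in control and cKO cells was 4.39% and 24.7% for Epas1, 0.303% and 14.7% for Slc7a10 and 0.567% and 16.1% for Il1r2. For Nav2 it was 10.2% and 50.8%, for Plcb4 8.06% and 38.4%, and for Sostdc1 0.946% and 22.2%. Gna14 was found in 0.303% and 11.2%, Plekhg3 in 0.643% and 12.9%, and Map2 in 0.908% and 13.7%. For comparison, the shares of B-lineage cells of cKO libraries with a Vdr or Sostdc1 UMI were 0.631% and 1.14% at a median depth of 5981 UMIs. The median depth was 6384 UMIs per control and 6476 per cKO cell. When each cell was thinned to 4000 UMIs, leaving out 249 control and 348 cKO cells, the cKO share was lower for every gene, at 16.4% for Vdr, 9.19% for Slc7a10 and 8.19% for Plekhg3, and both cKO libraries stayed above both control libraries for all 10. Intervals cover counting error only.

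Many cKO cells held several of these genes. At least 3 of the 10 were detected in 0.596% and 0.691% of control CD4 T cells and in 32.7% and 42.8% of cKO cells, and the highest number in 1 cell was 10. After thinning, the shares were 0.237% and 0.444% in control and 27.9% and 37.3% in cKO libraries.

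CD4 T cells of total libraries were divided into clusters, with the 10 genes and Il4 left out of the variable genes used for this. Sostdc1, Nav2, Vdr and Il1r2 were still among the leading genes of the Tfh-like clusters. The clusters came from the same cells, so the values by cluster are descriptions. Tfh-like cells made up 3.06% and 1.38% of control CD4 T cells (41 and 18 cells) and 25.5% and 34.6% of cKO cells (363 and 671 cells). Naive-like cells made up 73.8% and 70.8% in control and 42.1% and 30.1% in cKO mice, and Treg-like cells 11.8% and 12.1% against 17.1% and 17.9%. The 10 genes fell into different patterns across these clusters.

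Sostdc1 and Vdr were nearly limited to Tfh-like cells, which held 97.0% of the Sostdc1 and 95.2% of the Vdr UMIs of cKO CD4 T cells. Sostdc1 was detected in 67.4% and Vdr in 58.8% of cKO Tfh-like cells, but in 1.69% and 3.21% of Treg-like cells. In the 59 control Tfh-like cells Sostdc1 was found in 33.9% and Vdr in 5.08%. Il4 had a like distribution, with 92.6% of its UMIs in Tfh-like cells.

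Nav2, Plcb4, Il1r2, Slc7a10, Gna14 and Plekhg3 were carried by Tfh-like cells and also by Treg-like and memory-like cells. Nav2 was detected in 91.2% of Tfh-like, 68.5% of Treg-like and 74.4% of memory-like cKO cells, against 40.7%, 14.2% and 32.0% in control. Plcb4 was detected in 75.8%, 43.8% and 45.6% of those cKO cells, against 32.2%, 18.6% and 48.0% in control, so its share in memory-like cells was not higher in cKO mice. The control memory-like group had only 25 cells. Il1r2 was found in 34.8% of Tfh-like and 23.4% of Treg-like cKO cells, and Slc7a10 in 32.1% and 19.97%. Both were unevenly spread within the Tfh-like cells: Il1r2 was in 65.6% of 1 of the 2 cKO Tfh-like clusters and 14.0% of the other, and Slc7a10 in 50.5% and 19.6%. The median depth of the cluster with the higher shares was 8935 UMIs, against 5896 in the other.

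Epas1 was the member least centred on Tfh-like cells, with 48.1% of its cKO CD4 T cell UMIs there, 33.2% in Treg-like and 10% in memory-like cells. It was detected in 38.3% of Tfh-like, 40.8% of Treg-like, 31.7% of memory-like and 17.9% of Th1-like cKO cells. In control mice the values were 0%, 2.52%, 0% and 0.358%, where, at 3 counts, 0 of 59 Tfh-like cells allows a share of cells with a UMI of up to 5.08% and 0 of 25 memory-like cells one of up to 12%. The Treg-like cells formed 2 clusters, and Epas1 was found in 48.0% of cKO cells of one and in 2.15% of the other. In naive-like cells the share was 5.59% in control and 4.48% in cKO mice. Among CD4 T cells with a Foxp3 UMI, whichever their cluster, Epas1 was found in 3.36% of control and 38.4% of cKO cells, Il1r2 in 2.24% and 24.8%, and Slc7a10 in 2.24% and 21.7%.

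Map2 was the member found in the largest share of naive-like cKO cells, 8.19% and 18.2% in the 2 libraries against 0.505% and 0.434% in control. Each of the other 9 genes was found in at most 5.84% of them. These cells held 35.1% of the Map2 UMIs of cKO CD4 T cells, next to 51.8% in Tfh-like cells. In Tfh-like cells Map2 was found in 22.0% of cKO and 18.6% of control cells.

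**Figure D2:**
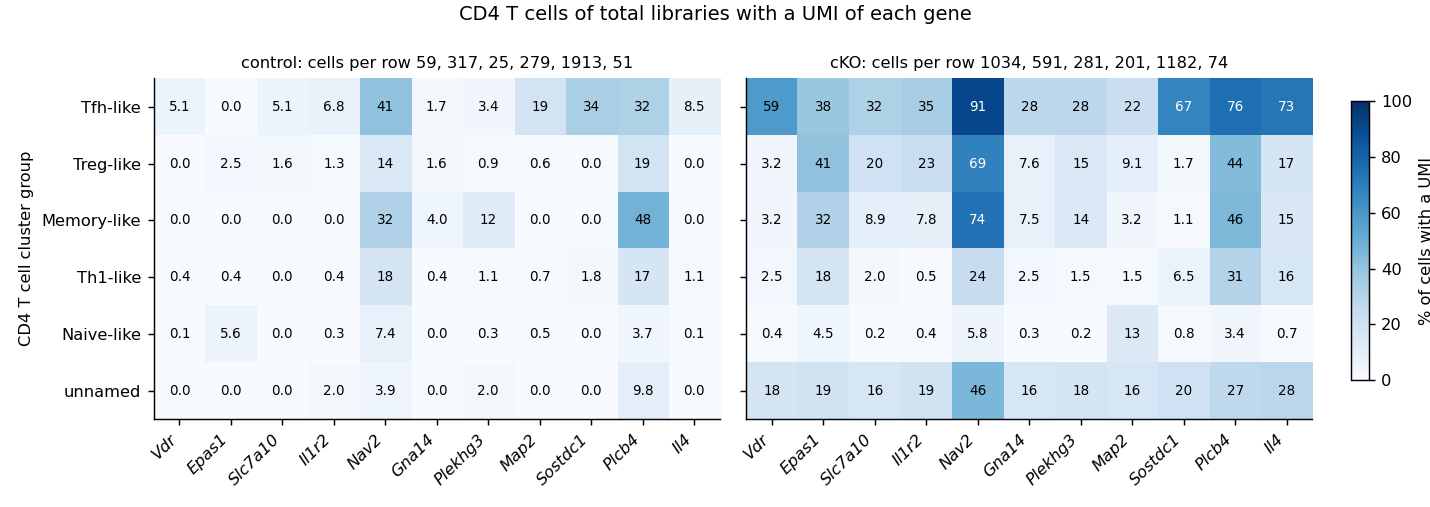
Percent of CD4 T cells of total libraries with a UMI of each gene, by cluster group (rows) and gene (columns) in control (left) and cKO (right) mice, both libraries pooled; darker blue is a higher percent. The Tfh-like row of the right panel is the darkest for each gene except Epas1, with Nav2 at 91.2% and Sostdc1 at 67.4%, and Map2 stands out in the naive-like row at 13.1%.

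Outside the Tfh-like clusters the 10 genes were also higher in cKO mice as a whole. Naive-like cells, which held few UMIs of most of these genes, made up a smaller part of these cells in cKO mice. A different mix and a change within a cluster group cannot be told apart from such sums. In these cells, a setting added after the data were seen, the log2 fold changes were 3.48 for Vdr, 2.59 for Epas1, 4.395 for Slc7a10, 4.01 for Il1r2 and 3.05 for Nav2. They were 3.46 for Gna14, 3.09 for Plekhg3, 3.86 for Map2, 3.76 for Sostdc1 and 1.68 for Plcb4. Outside these clusters, and in cells without an Il4 UMI, Vdr was found in 0.116% of control and 1.32% of cKO cells, and Epas1 in 4.50% and 16.0%. Within naive-like cells alone Nav2 was at 16.3 and 15.4 CPM in control and 12.8 and 8.52 CPM in cKO mice, and Plcb4 at 7.65 and 7.88 CPM against 5.65 and 5.68 CPM, so both were lower in the cKO libraries there.

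Across 20 sums of cells (a CD4 T cluster group in 1 library each), the 10 genes correlated with each other by r of 0.286 to 0.941, with a median of 0.750 over 45 pairs. These sums share libraries and come from both genotypes. The genes were chosen as higher in cKO cells, and Il4 was higher there too. Positive r among them was thus favoured, and the values are a description. Among 9552 genes, those with the pattern most like Vdr were Il4 (r = 0.938) and Fgf18 (0.932), and those most like Sostdc1 were 8030451A03Rik (0.934) and Gm47957 (0.920). For Slc7a10 they were Mark1 (0.934) and Gm16894 (0.929), and for Il1r2 again Mark1 (0.916), with Zfp612 (0.912). The nearest to Plcb4 were P2rx7 (0.956) and Jak2 (0.949), to Nav2 Myo1e (0.949) and Dst (0.949), to Gna14 Clip3 (0.924) and Chdh (0.901), and to Plekhg3 Fmn1 (0.919) and Fuca1 (0.894). Epas1 was nearest to Chdh (0.883) and Fam3c (0.843). Map2 had the least close neighbours, Dars (0.795) and Snrpf (0.776). Within thinned Tfh-like cells of cKO mice, detection of 2 members in the same cell was nearly unrelated, with a median r of 0.017 over the 45 pairs. The highest pair values were 0.266 for Vdr with Sostdc1 and 0.257 for Slc7a10 with Il1r2. Slc7a10 and Il1r2 were found together in 98 cells, where 54.1 would hold both if they were unrelated. That expected number pools the libraries and the Tfh-like clusters, between which the shares of both genes differed. In thinned cKO CD4 T cells outside the Tfh-like clusters the median r was 0.091. There 35 of the 45 pairs were above 0, against 27 in Tfh-like cells. All these r values mix libraries and clusters, and how much this mix added to them was not tested.

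In cKO mice 279 of 1421 and 680 of 1942 CD4 T cells held an Il4 UMI (19.6% and 35.0%), against 5 of 1342 and 5 of 1302 in control. Of the cKO cells with Il4, 82.4% and 77.5% were Tfh-like, against 11.6% and 11.4% of those without. All 10 genes were higher in Il4-positive than in Il4-negative cKO CD4 T cells by the edgeR quasi-likelihood test, with the library as a block. Of the 11635 genes tested, 17.5% were called higher there. The split used cKO cells whose counts also chose these genes, and Il4 was 2nd by fold change in that contrast. The p-values of this split, in all and in Tfh-like cells, are therefore no independent support. With the block they rest on the difference in only 2 libraries, so they lean largely on spread estimated over all genes. Fold changes fell into a strong, a middle and a weak set.

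Sostdc1 and Vdr had the strongest relation to Il4. Sostdc1 was at 83.0 and 100.1 CPM in Il4-negative and at 927 and 1398 CPM in Il4-positive cells of the 2 libraries (log2 fold change 3.65 ± 0.0992, adjusted p = 2.47e-53). Vdr was at 13.2 and 18.2 CPM against 154 and 208 CPM (3.50 ± 0.11, adjusted p = 1.78e-50). Without the library block the edgeR adjusted p was 0.0035 for Sostdc1 and 0.00308 for Vdr. Of the cells with a Vdr UMI, 80.3% held Il4, and of those with Sostdc1, 78.1%, against 28.5% of all cKO CD4 T cells. Within Tfh-like cells these values were 83.2% and 80.6%, against 73.2% of all cKO Tfh-like cells. Vdr was detected in 55.2% of Il4-positive and 5.41% of Il4-negative cells, and Sostdc1 in 60.9% and 6.82%.

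The middle set was Gna14, Plekhg3, Plcb4, Nav2, Slc7a10 and Il1r2, with log2 fold changes of 2.41, 2.04, 1.96, 1.88, 1.79 and 1.77. Epas1 and Map2 were the weak set. Epas1 was at 61.9 and 54.3 CPM against 123 and 91.7 CPM (0.86 ± 0.1), and Map2 at 24.1 and 34.5 CPM against 45.05 and 42.6 CPM (0.53 ± 0.137, adjusted p = 0.00137). Neither was called by edgeR without the library block, with adjusted p = 0.0804 and 0.251, and that fit called 8 of the 10 genes, beside 3.4% of all genes called higher. Map2 was also lost with cells thinned to 4000 UMIs (edgeR adjusted p = 0.0663), where 12.9% of genes were called higher, and by DESeq2 (adjusted p = 0.193), where 6.7% were. The Il4-positive cells of batch 2 were deeper, at a median of 7371 UMIs against 6448.

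Within Tfh-like cells alone, 5 of the 10 genes were higher in Il4-positive cells, beside 1.54% of the 9149 genes tested. These were Vdr (log2 fold change 1.17, edgeR adjusted p = 1.92e-06), Sostdc1 (1.10, adjusted p = 0.00103), Plekhg3 (0.76, adjusted p = 0.0463), Nav2 (0.59, adjusted p = 1.56e-06) and Plcb4 (0.55, adjusted p = 0.00167). In thinned Tfh-like cells Plekhg3 was found in 22.7% of the Il4-positive and 10.9% of the other cells in batch 1, but in 14.7% and 18.7% in batch 2, where the Il4-positive cells were deeper before thinning (medians of 7534 and 6081.5 UMIs). Of the genes not called, Gna14 had a log2 fold change of 0.57 in Tfh-like cells (edgeR adjusted p = 0.131), Il1r2 one of -0.071 (adjusted p = 0.894) and Epas1 one of 0.05 (adjusted p = 0.932). Outside Tfh-like cells, 202 cKO cells held Il4, and Epas1 was detected in 46.0% of them against 16.0% of the 2127 without Il4. Nav2 was found in 74.3% and 28.9% of these cells and Vdr in 11.4% and 1.32%, while Map2 was found in 6.12% and 12.4% of the cells with Il4 in the 2 libraries and in 7.04% and 12.5% of those without.

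**Figure D3:**
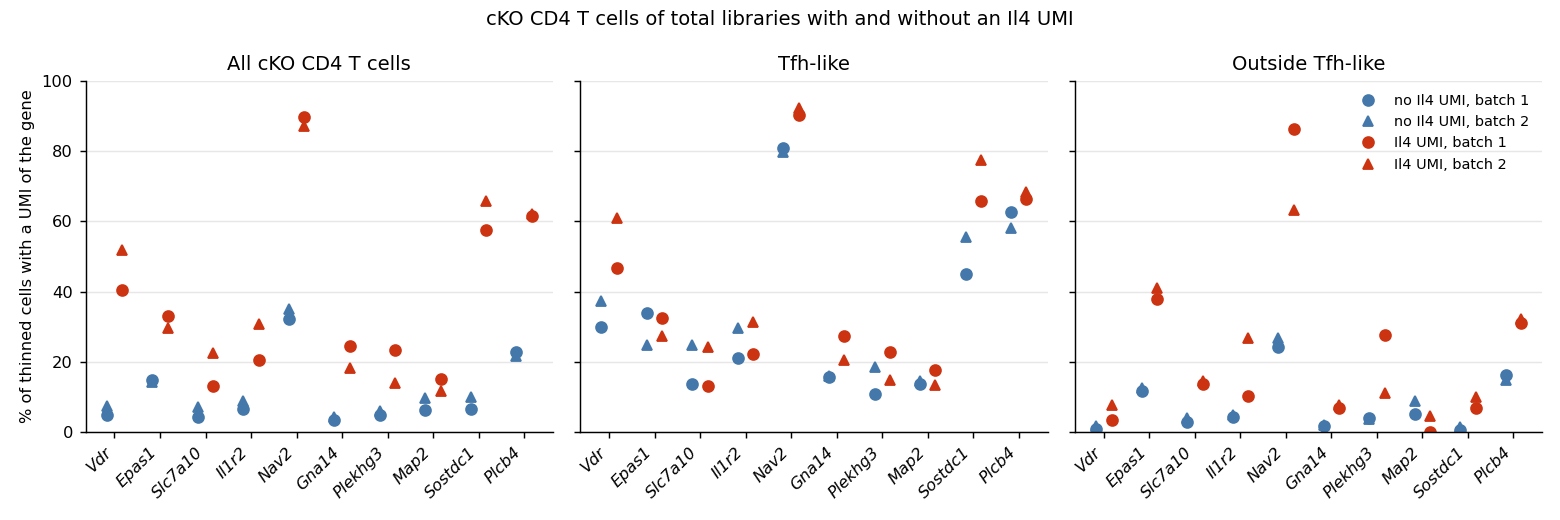
Percent of cKO CD4 T cells with a UMI of each gene, among cells with (red) and without (blue) an Il4 UMI, for all CD4 T cells, Tfh-like cells and the other CD4 T cells; circles are batch 1, triangles batch 2, and all cells were thinned to 4000 UMIs. Red points lie above blue points for every gene in the left panel, while in the middle panel both red points lie above both blue points for Vdr, Nav2, Gna14, Sostdc1 and Plcb4, and the points of the other genes overlap.

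The YFP+ libraries were not used in the choice, but they came from the same pools of mice as the total libraries that were, so differences between pools are shared. They held 173 and 29 control and 201 and 21 cKO CD4 T cells. Of the 10 genes, 7 passed the filter on low counts, and 6 of them were higher in cKO cells (edgeR quasi-likelihood test), beside 0.803% of the 6351 genes tested. Sostdc1 was at 20.9 and 0 CPM in control and at 260 and 531 CPM in cKO cells (log2 fold change 4.18 ± 0.524, adjusted p = 4.82e-12). Il1r2 was at 1.16 and 0 CPM against 29.7 and 137 CPM (3.65 ± 0.656, adjusted p = 2.07e-05). Vdr was at 3.49 and 0 CPM against 40.9 and 54.9 CPM (2.80 ± 0.647, adjusted p = 0.00295). The measured values did not overlap for these genes, but 3 counts in the control library with 29 cells are 30.8 CPM, above the lower cKO value of Il1r2. Of the 7 genes, 4 (Vdr, Epas1, Slc7a10 and Il1r2) passed the filter through the cKO libraries alone, as did Il4, so their p-values are no support. Of the other 3, which are Nav2, Sostdc1 and Plcb4, all 3 were called. Each reached the filter level in only 1 control library and in 2 cKO libraries, so it would not have passed without the cKO libraries. Their p-values are therefore no independent support either.

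Nav2 was at 84.8 and 0 CPM in control and at 510 and 211 CPM in cKO YFP+ CD4 T cells (2.56 ± 0.451, adjusted p = 1.59e-05), and Plcb4 at 15.1 and 30.8 CPM against 122 and 82.4 CPM (2.37 ± 0.505, adjusted p = 0.000744). Slc7a10 had 0 UMIs in both control libraries and 21.5 and 54.9 CPM in cKO cells (edgeR adjusted p = 0.0235), at least 8.26-fold higher than 3 counts over the control group. Epas1 was at 13.9 and 0 CPM against 48.1 and 45.8 CPM and was not called (1.71 ± 0.552, adjusted p = 0.136), but was called with the batch as a block (adjusted p = 0.0267). Gna14 (1.16 and 0 against 20.5 and 0 CPM), Plekhg3 (3.49 and 0 against 9.21 and 27.5 CPM) and Map2 (4.65 and 0 against 13.3 and 18.3 CPM) did not pass the filter. With the batch block all 7 genes were called, beside 1.79% of all genes called higher. DESeq2 called 1 of them, Il1r2 (adjusted p = 0.0489), beside 0.0945% of all genes, and gave no adjusted p for Vdr, Epas1 and Slc7a10. With 1 library left out the log2 fold change ranged from 1.75 to 6.25 for Nav2, 3.72 to 6.23 for Sostdc1, 1.68 to 2.62 for Plcb4 and 3.00 to 4.46 for Il1r2. Without the cKO library of batch 1 edgeR called 1, Sostdc1. Without the control library of batch 1 it called 2, Nav2 and Sostdc1. Il4 had 0 UMIs in both control libraries and was at 108 and 384 CPM in cKO cells, at least 45.2-fold higher than 3 counts over the control group.

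Outside CD4 T cells of total libraries, the carriers differed by gene. CD4 T cells held 87.1% of the Sostdc1, 81.5% of the Vdr, 79.4% of the Slc7a10, 79.1% of the Nav2, 78.2% of the Gna14, 74.5% of the Plcb4 and 74.4% of the Epas1 UMIs of the cKO libraries. They held 58.9% of the Map2, 45.3% of the Il1r2 and 34.0% of the Plekhg3 UMIs. A further T cell class that could not be assigned to CD4 or CD8, in which 48.1% of control and 49.0% of cKO cells held Cd4 and 37.0% and 40.6% Cd8a, followed the CD4 T cells, for example with Vdr in 0.426% and 10.4% and Epas1 in 2.55% and 22.9% of cells. The cells of this class were deeper in cKO mice (medians of 7907 UMIs in control and 10764.5 in cKO), and these shares were not thinned.

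Of the Il1r2 UMIs of control mice, neutrophils held 50.3% and conventional dendritic cells 30.9%. The neutrophil share came from batch 1, where Il1r2 was found in 93.2% of 103 control and 83.3% of 66 cKO neutrophils, against 20% of 15 and 50% of 16 in batch 2. It was detected in 52.8% of control and 50.2% of cKO conventional dendritic cells, and its level there was 290.1 and 268 CPM in control and 301 and 238 CPM in cKO mice (log2 fold change -0.05 ± 0.285). The neutrophil markers, with 5 of 6 detected, summed to 17.6 and 1.31 CPM in control and 8.70 and 9.82 CPM in cKO CD4 T cells. Their sum was thus lower in the cKO library of batch 1 and higher in that of batch 2.

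In control mice B-lineage cells, 63.0% of all cells, held 73.0% of the Plekhg3 and 65.3% of the Map2 UMIs. Gna14 and Plcb4 were found in 21.4% and 64.3% of the 56 control cells of a cluster led by Igfbp7 and Stab2, left unnamed, and Epas1 in 33.9%. Another unnamed cluster, led by Cxcr6 and Zbtb16, held 79.6% of the Il4 UMIs of control mice. There Il4 was found in 47.3% of control and 45.6% of cKO cells and Epas1 in 16.5% and 16.2%, while Vdr was found in at most 0.735% and Sostdc1 in 0 of 188 and 0 of 136 cells, which, at 3 counts, allows shares of cells with a UMI of up to 1.60% and 2.21%. Plasmacytoid dendritic cells carried Nav2 in 38.8% and 40.0%, and natural killer cells Plcb4 in 20.9% and 19.8% of cells.

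**Figure D4:**
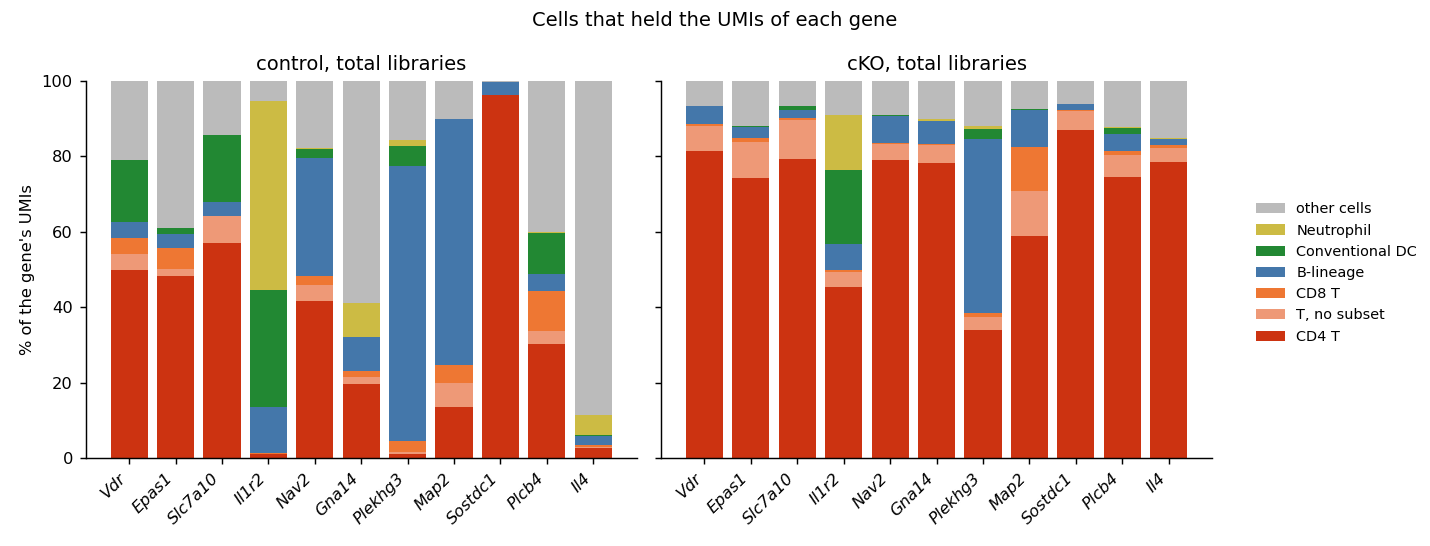
Share of each gene's UMIs in total libraries by cell class (stacked bars, percent of the gene's UMIs), in control (left) and cKO (right) mice with both libraries pooled. In cKO mice CD4 T cells (red) hold 74.4 to 87.1% of 7 of the 10 genes, while in control mice most Plekhg3 and Map2 UMIs lie in B-lineage cells (blue) and 50.3% of the Il1r2 UMIs in neutrophils (yellow).

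In the other named classes of total libraries, 30 pairs of gene and class passed the filter, over B-lineage, CD8 T, natural killer, conventional and plasmacytoid dendritic, monocyte or macrophage, and plasma cells. Of these, 8 passed through the cKO libraries alone: Vdr, Epas1, Gna14 and Sostdc1 in B-lineage cells, Map2 and Sostdc1 in CD8 T cells, and Nav2 and Plcb4 in plasma cells. The p-values of these 8, here and below, are no support. By the edgeR quasi-likelihood test 0 of the 30 were called, with a lowest adjusted p of 0.108. At an unadjusted p under 0.05 there were 14, DESeq2 called 7, and edgeR with the batch as a block called 11. Without the 8 pairs that passed through the cKO libraries alone these counts were 6, 2 and 3 of 22, the last being Il1r2, Nav2 and Plcb4 in B-lineage cells. Over all genes of these 7 classes together edgeR called 0.0399%, 4.4% were at an unadjusted p under 0.05, DESeq2 called 0.675% and edgeR with the block 4.97%.

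In B-lineage cells of total libraries, 9 of the genes passed the filter and 0 were called by edgeR, beside 0.0684% of the 14615 genes tested. With the batch block 7 were called, beside 13.4%, of which 6 were higher and Il1r2 lower, and DESeq2 called 4, beside 2.46%. Nav2, the one at the highest level of these, was at 6.71 and 4.71 CPM in control and 14.04 and 13.1 CPM in cKO cells (edgeR adjusted p = 0.136, with the block 0.00272). Sostdc1 was at 0.119 and 0.116 CPM in control and 1.08 and 2.81 CPM in cKO cells, and Vdr at 0 and 0.0232 CPM against 0.296 and 1.82 CPM. The level in cKO B-lineage cells was 0.398% and 0.418% of that in CD4 T cells of the same library for Sostdc1, 0.666% and 1.78% for Vdr and 2.19% and 2.14% for Nav2. The 7 T cell markers, summed, stood at 0.804% and 0.688%, with all 7 detected and 36.0 and 54.2 CPM in control against 39.5 and 46.2 CPM in cKO B-lineage cells. Among B-lineage cells without a UMI of Cd3d, Cd3e, Cd3g, Trac or Cd4, a setting added after the data were seen, the log2 fold change was 3.08 for Sostdc1 against 3.62 in all, and Vdr no longer passed the filter. Slc7a10 did not pass it among all B-lineage cells either. Il4 was at 0.119 and 0.139 CPM in control and 0.824 and 1.74 CPM in cKO B-lineage cells (edgeR adjusted p = 0.128, with the block 0.00433, by DESeq2 0.00101), and it too passed the filter through the cKO libraries alone.

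Plekhg3 went the other way in several classes. It was at 18.3 and 16.5 CPM in control and at 11.0006 and 5.25 CPM in cKO B-lineage cells (log2 fold change -1.09 ± 0.342, adjusted p = 0.394). In conventional dendritic cells it was at 29.6 and 29.6 CPM against 15.2 and 15.4 CPM (-0.90), in monocytes or macrophages at 57.1 and 53.1 CPM against 20.9 and 38.7 CPM (-0.87), and in CD8 T cells at 2.61 and 4.204 CPM against 1.57 and 0.948 CPM (-1.27). In each the cKO libraries lay below the control libraries, and edgeR called none of them, at adjusted p of 0.844 or more outside B-lineage cells.

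In CD8 T cells Map2 and Sostdc1 had the largest fold changes of the members that passed the filter. Both passed it through the cKO libraries alone, as did Nav2 and Plcb4 in plasma cells, so the p-values given for them are no support. Map2 was at 0.939 and 0.568 CPM in control and 4.25 and 20.7 CPM in cKO CD8 T cells (3.65 ± 0.703, and 2.16 to 4.38 with 1 library left out), with an edgeR adjusted p of 0.207 and of 0.0136 with the batch block. Sostdc1 had 0 UMIs in both control libraries and was at 2.20 and 4.27 CPM in the cKO libraries, at least 19.4-fold higher than 3 counts over the control group (adjusted p = 0.117, with the block 2.16e-05). Among all genes, 0.0441% were called in this class, 7.2% with the block and 0.573% by DESeq2, which called Map2 and Sostdc1. Vdr, Slc7a10, Il1r2 and Gna14 did not pass the filter here. The Map2 level was 15.3% and 53.4% of that in CD4 T cells of the same library, and the Sostdc1 level 0.819% and 0.641%. In cells thinned to 4000 UMIs, Sostdc1 was found in 0.264% and 1.43% of CD8 T cells of the 2 cKO libraries and in 0.359% and 0.814% of their B-lineage cells, and Map2 in 1.06% and 5.44% against 0.636% and 0.319%. In CD8 T cells without a UMI of Cd4, Cd79a or Ms4a1 the log2 fold changes were 3.62 and 3.30. In plasma cells Nav2 was at 1.37 and 2.00 CPM in control and 42.5 and 11.1 CPM in cKO mice (3.26, edgeR adjusted p = 0.34, with the block 2.26e-08), and Plcb4 at 1.37 and 0 against 10.9 and 10.1 CPM (2.58, edgeR adjusted p = 0.22, with the block 0.000977), where edgeR called 0.14% of all genes, 3.6% with the block, and DESeq2 0.318%.

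Among unnamed clusters 9 pairs were tested and 1 was called, beside 0.399% of genes called higher there. Nav2 in a cluster led by Bhlhe41 and Dnm3 was at 5.39 and 0 CPM in control and 37.4 and 116 CPM in cKO mice (log2 fold change 3.83 ± 0.621, edgeR adjusted p = 0.0309), while DESeq2 did not call it (adjusted p = 0.413). It passed the filter there through the cKO libraries alone.

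The YFP+ libraries were mainly B-lineage cells, the cells in which Cre acts, with 6221 and 8579 in control and 9061 and 10048 in cKO mice. Of 8 genes that passed the filter, edgeR called 3 higher and 1 lower in cKO cells, beside 3.67% and 4.08% of the 15636 genes tested. Vdr, 1 of those called higher, passed the filter through the cKO libraries alone, so its p-value is no support. Without it 3 calls remain. The states of B-lineage cells were not separated, so a different mix of states and a change within a state cannot be told apart. At the coarser Leiden resolution of 0.5 the class grew to 7755 and 10300 control but only 9197 and 10130 cKO cells. Map2 was at 8.89 and 5.97 CPM in control and at 0.913 and 0.554 CPM in cKO cells (log2 fold change -3.30 ± 0.366, adjusted p = 0.00333), opposite to its direction in CD4 T cells. Plekhg3 was also lower, at 8.77 and 6.22 CPM against 3.85 and 1.59 CPM, but was not called (-1.45 ± 0.417, adjusted p = 0.0771, with the batch block 0.00023).

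Higher in these B-lineage cells were Vdr, at 0.0169 and 0.0151 CPM in control and 0.308 and 0.953 CPM in cKO mice (3.95 ± 0.69, adjusted p = 0.014), and Plcb4, at 0.759 and 0.755 CPM against 2.05 and 2.32 CPM (1.496 ± 0.33, adjusted p = 0.0304). Il1r2 was at 3.66 and 4.52 CPM against 10.9 and 7.28 CPM (1.15 ± 0.286, adjusted p = 0.0481). The control level of Vdr rested on 1 UMI in each library, and it passed the filter through the cKO libraries alone. At Leiden resolution 0.5 Il1r2 (0.66, edgeR adjusted p = 0.327) and Plcb4 (1.31, adjusted p = 0.0644) were no longer called, and at 1.5 Il1r2 was not (0.80, adjusted p = 0.155), while Map2 was called at both, with -3.01 and -3.21. With the batch block 5 genes were called, beside 22.9% of all genes, and DESeq2 called 5, beside 10.9%. Sostdc1, at 0.0675 and 0.0906 against 0.190 and 0.0554 CPM, and Slc7a10, at 0 against 0.178 and 0.133 CPM, did not pass the filter. Il4 was lower in them, at 0.472 and 0.740 CPM against 0.0949 and 0.0443 CPM (-2.73, adjusted p = 0.0182), the reverse of CD4 T cells, and passed the filter there through the control libraries alone.

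**Figure D5:**
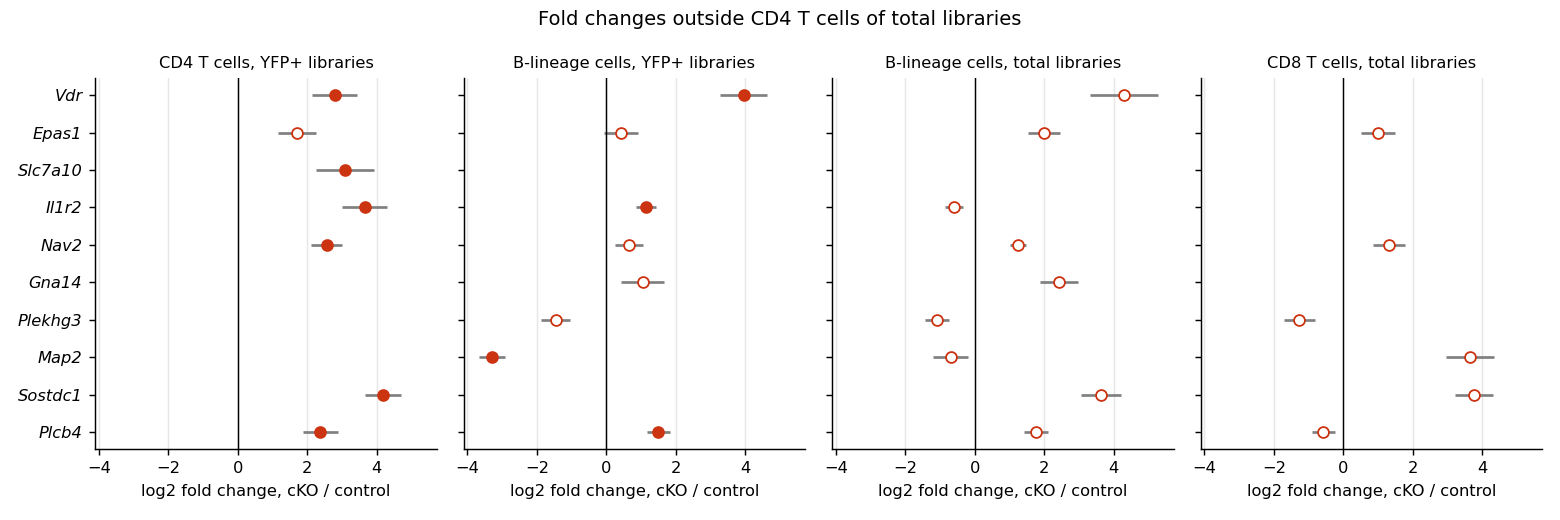
Log2 fold change (cKO over control, point) with its SE (bar) for the members that passed the filter in CD4 T and B-lineage cells of YFP+ libraries and in B-lineage and CD8 T cells of total libraries; filled points had an edgeR adjusted p below the threshold. All points of the left panel are above 0, Plekhg3 and Map2 are below 0 in both B-lineage panels, and no point is filled in the panels of total libraries.

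Relatives of the 10 genes, 84 genes in 8 lists, were tested in CD4 T cells of total libraries, where 53 passed the filter. Of these, 7 were higher in cKO cells and 0 lower (edgeR), 13.2% beside 2.95% of all 12144 genes. Il1r1 and Map1b, 2 of the 7, passed the filter through the cKO libraries alone, so their p-values are no support, and 5 calls remain without them. Plekhg1 and Fst passed it in the same way and were called with the batch block and not without it. With the batch block 18 were higher and 4 lower, beside 26.4% of all genes called in either direction. In the HIF list, 2 of 8 rose: Arnt2, which encodes a partner subunit of HIF factors, from 3.61 and 1.53 CPM to 33.2 and 26.4 CPM (log2 fold change 3.39, edgeR adjusted p = 0.0128) and Egln3, a prolyl hydroxylase that marks HIF for degradation (1.95, adjusted p = 0.0226). Hif1a, named here and below with Il1rap, Gnaq and Cyp24a1 after their values were seen, was at 235 and 163 CPM against 259 and 314 CPM and was not called (0.53, adjusted p = 0.525).

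Of the IL-1 receptor family 2 of 10 rose. The p-value of Il1r1, which passed the filter through the cKO libraries alone, is no support. Il1r1, the signalling receptor for IL-1, went from 0.638 and 1.11 CPM to 9.77 and 25.4 CPM (4.10, edgeR adjusted p = 0.0188), and Il1rl1, the IL-33 receptor, from 3.29 and 3.76 CPM to 37.9 and 49.1 CPM (3.56, adjusted p = 0.0072). The partner chain gene Il1rap was at 22.8 and 14.6 CPM against 23.2 and 16.0 CPM (0.05).

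In the Gq and phospholipase C list 1 of 11 rose, the Gq class subunit Gna15 (1.48, edgeR adjusted p = 0.0325), while Gnaq (1.59) was not called without the batch block (adjusted p = 0.0573) and was with it (6.15e-08). Among navigators and microtubule-associated proteins, 2 of 7 rose, Map6 (2.25, adjusted p = 0.0266) and Map1b (3.81, adjusted p = 0.0254), the latter with 0 and 2 UMIs in control. Map1b passed the filter through the cKO libraries alone, so its p-value is no support. By edgeR 0 genes were called among 7 of the vitamin D list, 5 of the SLC7 list, 3 Plekhg exchange factors and 2 BMP and WNT antagonists, while with the batch block 6 of these were higher and 2 lower. Cyp24a1, a main target of the vitamin D receptor, had 0 UMIs in all 4 libraries. Outside the Tfh-like clusters, 2 of the relatives were called, beside 0.275% of all genes.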

How the data were processed

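The authors deposited UMI counts, not normalized, for 32285 genes in 8 libraries. Per the labels the build is GRCm38 (mm10), while aligner and annotation were not named. Totals were 71894780 to 105224903 UMIs per library. Of 83967 barcodes, 83704 passed the cutoffs of the study (UMIs above 200, genes above 100, mitochondrial share up to 10%).

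Cells were clustered on 2000 variable genes and 30 principal components, centred within batches (Leiden, resolution 1, igraph 0.11.9). The members, Il4, and immunoglobulin, T cell receptor segment, ribosomal protein and mitochondrial genes were left out of the variable genes. Clusters were named from at least 3 detected markers. Clusters with T and B markers were set apart. A doublet caller marked 0.764 to 1.19% of cells of total libraries and under 0.5% in 3 of the 4 YFP+ libraries, so it served as an alternative in total libraries only.

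Counts were summed per library and class of at least 20 cells and fitted over all genes that passed the filter of edgeR 4.0.16 (TMM, quasi-likelihood test, Benjamini-Hochberg, threshold 0.05), with R 4.3.3. Il4-positive and Il4-negative sums had the library as a block. DESeq2 1.42.0, other size factors, no filter, other clusterings, stricter cells, a gate on Cd4, thinning and leaving out a library were alternatives. Scripts were tested on simulated counts. The labels give a batch number, and deviations of same-batch samples correlated at 0.501 to 0.627 in every class checked, so the blocked value is given where it changes a call. Shares have exact Clopper-Pearson intervals at 95%, and a count of 0 was read as allowing up to 3 counts.

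The members, the lists of relatives and the tests were chosen with earlier results of these data known. Named by plan were the members and Il4, the relatives that were called, and for each member the 2 genes with the closest pattern over sums of CD4 T cluster groups. Also named are Hif1a, Il1rap, Gnaq, Cyp24a1, Plekhg1, Fst, Gata3, Eif3e, and marker and leading genes of the cell classes.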

Additional observations from a re-analysis of the deposited data

Results flagged for a closer look

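Some members were lower in every cKO library of a class while higher in every cKO library of CD4 T cells, the direction that chose them. The difference between classes was not tested. Plekhg3 had log2 fold changes of -1.45 in B-lineage cells of YFP+ libraries and, in total libraries, -1.09 in B-lineage, -1.27 in CD8 T, -0.90 in conventional dendritic and -0.87 in monocyte or macrophage cells. Map2 was at -3.30 in B-lineage cells of YFP+ libraries and Il1r2 at -0.60 in B-lineage cells of total libraries. Plcb4 was at -0.58 in CD8 T cells, -0.36 in conventional and -0.52 in plasmacytoid dendritic cells, -0.50 in the cluster led by Cxcr6 and Zbtb16 and -0.62 in that led by Igfbp7 and Stab2. Of these values, that of Map2 passed the edgeR threshold.

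Cells with both T and B markers, which entered no comparison, also showed the genes: 9 of the 10 were detected in a larger share of them in both cKO than in both control libraries, the exception being Plekhg3 (9.31% of control and 9.13% of cKO cells). Of all 18244 genes with a UMI in these cells, 16.8% were found in a larger share in both cKO libraries. The cells were deeper in cKO mice (medians of 12065.5 and 11155 UMIs), and the shares were not thinned. Epas1 was found in 1.62% and 14.1% of these cells.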

How the results depend on the processing

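The number of members with a log2 fold change of at least 2 in CD4 T cells of total libraries was 10 under the main and every planned setting, and 9 outside the Tfh-like clusters. Both cKO shares exceeded both control shares for 10 genes in all cells and in thinned cells. Leaving out 1 library could not have changed this count. In the other classes of total libraries the count of 0 calls became 6 without a filter on low counts, 7 with DESeq2, 11 with the replicate block, 1 at Leiden resolution 0.5 and 1 at 1.5, and 5 to 11 with 1 library left out. The share of all genes called rose with it, from 0.0399% to 0.465%, 0.675%, 4.97%, 0.124%, 0.0486% and 0.495 to 1.54%. Of the 7 calls with DESeq2 and the 11 with the replicate block, 2 and 3 were pairs that had not passed the filter through the cKO libraries alone. In YFP+ CD4 T cells the 6 calls became 1 with DESeq2 and 1 to 6 with 1 library left out, and 7 with the replicate block, beside 0.976%, 0.126%, 0.469 to 0.842% and 2.87% of all genes. In YFP+ B-lineage cells the 4 calls became 4 to 7 with 1 library left out, 5 with the replicate block and 3 at Leiden resolution 0.5 and 1.5, beside 7.75%, 4.79 to 15.4%, 22.9%, 6.08% and 7.26%. The 10 calls for Il4 became 5 in Tfh-like cells only, 8 with no replicate block and 9 with DESeq2 and in thinned cells, beside 33.8%, 2.56%, 6.15%, 12.8% and 25% of all genes called in either direction. The 7 relatives became 14 without a filter, 22 (18 higher, 4 lower) with the replicate block, 2 outside Tfh-like clusters and 10 to 14 with 1 library left out, beside 2.95%, 5.76%, 26.4%, 0.275% and 3.5 to 8.92% of all genes. The causes were not tested. Direction turned for Map2 in B-lineage cells of total libraries without control replicate 1 (0.0012, with a range of -1.29 to 0.0012 over the libraries left out), for Nav2 in YFP+ B-lineage cells without cKO replicate 1 (-0.14, range -0.14 to 1.18), and for Il1r2 by Il4 in Tfh-like cells only (-0.071). Ranges with 1 library left out also crossed 0 for values that were not called, among them Il1r2 in conventional dendritic cells (-0.24 to 0.106) and Nav2, Plekhg3 and Plcb4 in natural killer cells (-0.47 to 0.89, -1.29 to 0.68 and -0.61 to 0.36). For YFP+ cells the Cd4 gate was not run, because under 20 cells were left, and neither was removal of doublets, because the caller marked too few. Settings outside Tfh-like clusters were added after the data were seen. With 2 libraries a group and 21 to 29 cells in 2 of the YFP+ sums, small differences were not detectable.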

Other observations

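Marker lists of CD4 T cell states were read in the same CD4 T cells of total libraries. By edgeR, 5 of the 5 Th2 markers tested were higher in cKO mice, 2 of 8 Tfh and 2 of 6 Treg markers were higher, and 1 of 6 naive and 1 of 6 Th1 markers were lower, beside 2.95% of all genes called in either direction. With the batch block 5 Th2, 7 Tfh and 5 Treg markers were higher and 1 Treg, 4 naive and 5 Th1 markers lower, beside 26.4% of all genes. Gata3, the transcription factor that directs the Th2 state, was at 76.4 and 74.1 CPM in control and 188 and 206 CPM in cKO CD4 T cells (log2 fold change 1.38, edgeR adjusted p = 0.0321). It was not called without the cKO library of batch 2 (edgeR adjusted p = 0.073) or outside the Tfh-like clusters (0.0914). The lists were written with earlier results of these data known. Il1rl1 is in the Th2 list and also among the relatives above, so its call appears in both counts. For the Th2 markers other than Il1rl1 and Gata3, it was not checked whether they passed the filter through the cKO libraries alone.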
